A study of Drosophila melanogaster with 30 samples.

Results

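The yellow genes of Drosophila melanogaster were followed through heads and bodies of young and aged males. The family was taken by gene name from the count table, which gave 10 of its 17559 genes: y, yellow-b, yellow-c, yellow-d, yellow-d2, yellow-e, yellow-e3, yellow-f, yellow-f2 and yellow-h. All 30 libraries are poly(A) RNA from the head or the body of single adult males of the Cantonized w1118 strain, which carries a mutation in the eye pigment gene white (w) and was kept at 25 °C, 60% humidity and 12 h of light in each day. Young flies were 5 days old and slept normally. Aged flies were 25 days old, and a sleep assay had divided them into normal sleepers (aged NSF) and flies with fragmented sleep (aged SF). Each of these 3 conditions had 5 heads and 5 bodies. The labels name no transgene and no drug, and all flies were males. Nothing in the labels says that the flies of a group came from separate vials, so the p-values measure the spread between single flies that may share a culture. The choice of aged SF heads as a group of interest for yellow-e was made with that gene's result known.

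Yellow proteins are secreted or membrane-bound proteins that share a domain with the major royal jelly proteins of the honeybee. The founding member, y, is needed for black melanin in the cuticle and has a role in male courtship. Insect pigment starts from tyrosine, which is turned into dopa and dopamine, and these are either oxidised to dark melanins or coupled to beta-alanine or acetyl groups for pale cuticle. yellow-f and yellow-f2 encode enzymes that convert dopachrome, an intermediate on the way to melanin. In the silkworm, yellow-e affects the colour of the larval head and tail.

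Library totals ran from 1685034 to 3597530 reads in heads and from 2458538 to 8060238 reads in bodies. A count of 3 reads, used as a floor for genes with none, is between 0.834 and 1.78 CPM per head library on unscaled totals. Per body library it is between 0.372 and 1.22 CPM on unscaled totals. All other CPM are counts divided by the scaled library total. The gene w had 13 reads in all heads together and 112 in all bodies. The 7 photoreceptor markers summed to between 28045 and 53216 CPM in heads. They summed to between 41.5 and 98.1 CPM in 14 bodies but to 784 CPM in aged NSF body 2. The 6 testis markers summed to 199 CPM in aged NSF body 1 and to between 1202 and 3310 CPM in the other 14 bodies, with the gene lists and scaling the same in all 30 libraries. Results for members, listed genes and neighbours in bodies are therefore also given without aged NSF bodies 1 and 2 where that changed a call. In heads, 4 of 5 muscle markers fell from young to aged NSF flies, where 22.8% of genes were called and 11.5% called lower. The summed level of the muscle markers went from between 3689 and 4459 CPM to between 1956 and 2754 CPM, and to between 1648 and 2152 CPM in aged SF heads. Fat body markers summed to between 5108 and 7851 CPM in the young, 962 and 2804 CPM in the aged NSF and 1085 and 3031 CPM in the aged SF group. In bodies, 3 of 5 muscle markers fell in each aged group, where 41.1% (aged NSF) and 14.4% (aged SF) of genes were called in either direction. The muscle sums were between 5862 and 6817 CPM in the young, 3717 and 5756 CPM in the aged NSF and 2422 and 3666 CPM in the aged SF group. Of 4 fat body markers 2 fell in aged NSF and 1 in aged SF bodies, against the same shares of genes. Without aged NSF bodies 1 and 2, the marker CG3523 lost its call in aged NSF bodies (-0.95, edgeR adjusted p = 0.122). The fat body sums were between 2448 and 3475, 1058 and 3355, and 895 and 3262 CPM in young, aged NSF and aged SF bodies. The part of these markers in the age results below was not tested. In such bulk samples, fewer cells of a type and less RNA per cell cannot be told apart.

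The family is spread over 5 chromosome arms, partly in clusters (coordinates of dm6, which is BDGP6). y lies on chromosome X at 356509 to 361245. yellow-b (2L, 16754336 to 16758283) shares 5.4% of its exon sequence with the ion channel gene ppk17 on the other strand. yellow-c (2L, 15035394 to 15037841) shares 74.8% with CIAPIN1, an iron-sulfur protein gene on the other strand. yellow-d (2R, 23378573 to 23380438) and yellow-d2 (2R, 23381197 to 23382591) are 758 bp apart on the plus strand. yellow-f (3R, 12991449 to 12993201) and yellow-f2 (3R, 12993395 to 12995147) lie 193 bp apart on the minus strand. Further along the same arm and strand stand yellow-e3 (13403423 to 13404870), the non-member yellow-e2 and then yellow-e (13409543 to 13415286). yellow-h is on chromosome 4 at 227922 to 230428 and shares 12.1% of its exons with a non-coding antisense RNA. Whether the reads were counted by strand is not given in the sources used here. The 70 protein-coding genes with more than 99% of their exon sequence opposite other genes had a median of 690 reads over all libraries and none had 0, so such reads were not dropped. In 10 pairs in which 1 gene lay at least 99% under the exons of the other, both with at least 300 reads in each tissue, the log2 CPM of the pair had a median Pearson r of 0.82 over 15 heads and 0.60 over 15 bodies. In 4006 opposite-strand pairs that lay apart by at most 5 kb, the medians were 0.10 and 0.12. The median absolute log2 ratio of reads per kilobase was 1.45 in the 10 overlapping pairs and also 1.45 in the 4006 pairs that lay apart. For yellow-c and CIAPIN1 r was 0.88 over heads and 0.81 over bodies, and their reads per kilobase differed 1.09-fold (0.126 on the log2 scale). yellow-b and ppk17, which share little exon sequence, had r of 0.61 over heads and 0.84 over bodies. A high r alone therefore does not show mixed reads. Whether the reads of yellow-c and CIAPIN1 were counted apart is not known.

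Reads were found in all 15 heads for 8 of the 10 members and in all 15 bodies for 7. The low-count filter, applied to heads and bodies separately, kept 7 members for testing in each tissue: yellow-b, yellow-c, yellow-d, yellow-e, yellow-f, yellow-f2 and yellow-h. yellow-d2 passed it only when heads and bodies were fitted together. Per kilobase of exon, yellow-c stood highest in young heads at 61.1 ± 8.83 CPM per kb (SD, n = 5). yellow-f2 and yellow-d followed at 33.3 ± 12.9 and 30.8 ± 19.3 CPM per kb, and their values overlapped with each other and with those of yellow-c. yellow-b (8.29 ± 2.15), yellow-e (7.69 ± 3.15), yellow-f (6.97 ± 3.78) and yellow-h (6.61 ± 1.38 CPM per kb) formed a lower set that the flies' spread did not order. yellow-d2 was at 1.30 ± 0.804 CPM per kb. The order in young bodies began with yellow-d at 35.2 ± 3.71 CPM per kb, then yellow-c at 26.0 ± 6.25 and yellow-f2 at 13.5 ± 5.54 CPM per kb. Each of these genes also overlapped with the next in the order. Below them stood yellow-e (8.94 ± 4.88), yellow-b (7.80 ± 1.58), yellow-f (4.69 ± 1.72) and yellow-h (4.48 ± 0.635 CPM per kb), each overlapping with the next, and yellow-d2 at 0.431 ± 0.337 CPM per kb.

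**Figure D1:**
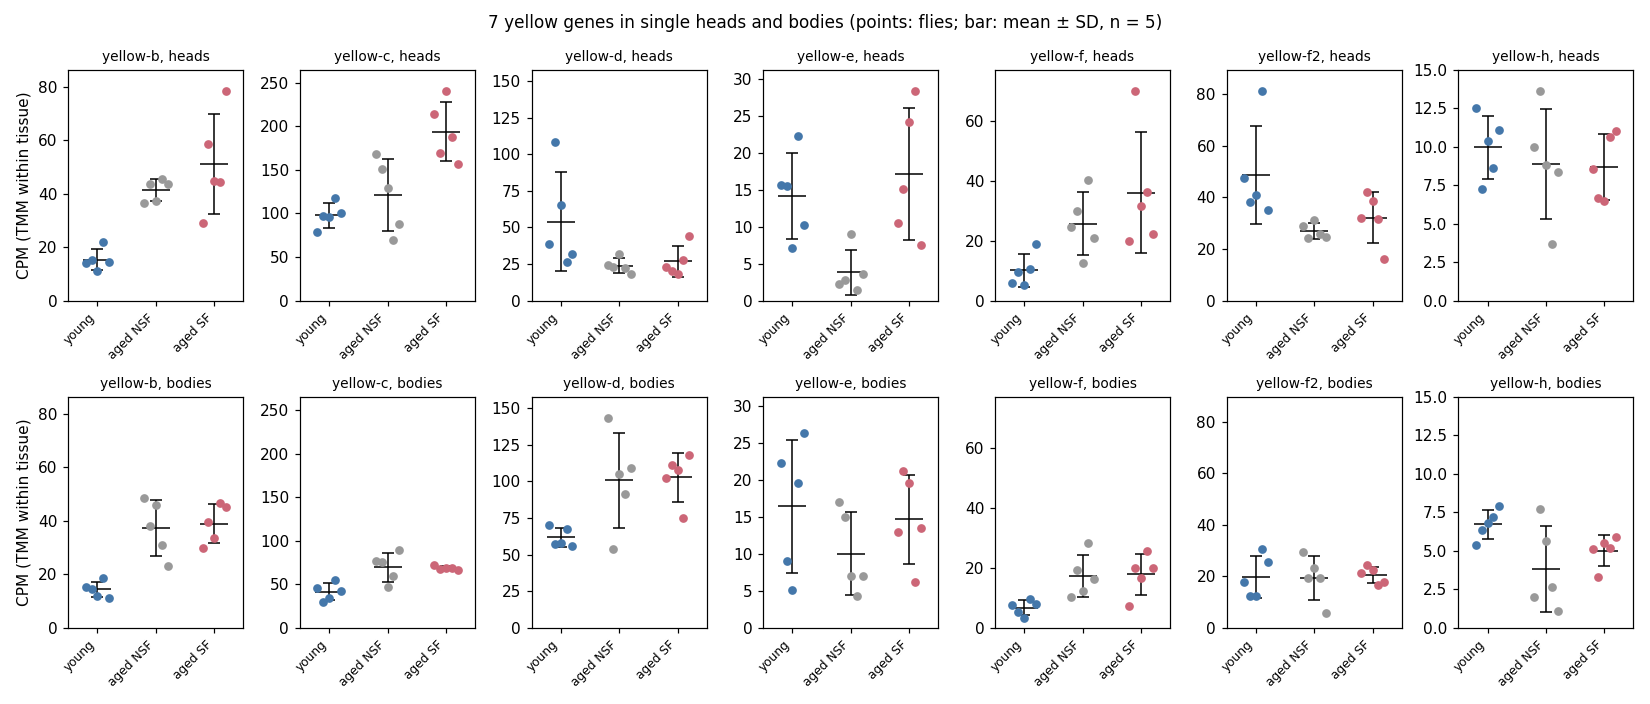
CPM (vertical axis, scaled within heads or within bodies) of the 7 tested yellow genes in young, aged NSF and aged SF flies, heads above and bodies below. Points are single flies and bars are the mean ± SD of 5. In heads yellow-b rises from 15.3 CPM in the young to 41.3 CPM in aged NSF flies, while yellow-d falls from 53.9 to 23.8 CPM, and in bodies yellow-d goes from 61.7 to 101 CPM.

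The founding pigment gene y was almost silent. It had 3 reads in all heads, 2 of them in aged NSF head 2, and 0 in each young head. Bodies held 12 reads, of which 8 came from young body 1. yellow-e3 had 10 head reads, 8 of them in aged SF head 5, and 2 body reads. Both genes lie at or under the floor of 3 reads in all but these libraries, so no change with age or sleep could be detected at this depth. yellow-d2 had 98 reads in heads and 76 in bodies, with at most 13 in a head and 16 in a body. Its mean was 1.74 CPM in young, 2.86 CPM in aged NSF and 3.21 CPM in aged SF heads, with overlapping values.

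The dopachrome-converting genes yellow-f and yellow-f2, neighbours on 3R, were called in opposite directions in the heads of aged normal sleepers, where yellow-f rose and yellow-f2 fell. Young heads measured 6.01, 9.44, 5.18, 10.6 and 18.9 CPM of yellow-f, those of aged normal sleepers 24.5, 30.0, 12.4, 40.3 and 20.9 CPM, and those of fragmented sleepers 19.9, 70.0, 31.6, 36.0 and 22.04 CPM. Young head 5 reached into the aged NSF range, and all aged SF heads lay above all young heads. yellow-f rose by 1.33 ± 0.40 on the log2 scale from young to aged NSF heads (log2 fold change ± SE, quasi-likelihood test of edgeR with Benjamini-Hochberg adjustment over all genes, adjusted p = 0.0202), which is 2.51-fold. Against young heads the aged SF heads were 3.50-fold higher (1.81 ± 0.40, edgeR adjusted p = 0.00211). The rise in normal sleepers lost the call without young head 1 (adjusted p = 0.0542), 2 (0.0514) or 3 (0.0519) or without aged NSF head 4 (0.0609), and under limma voom (0.0548). Between the sleep groups, yellow-f differed by 0.48 ± 0.37 (edgeR adjusted p = 0.748).

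For yellow-f2, young heads measured 47.7, 38.1, 40.8, 81.4 and 35.3 CPM, while aged NSF heads measured 29.1, 24.2, 31.2, 25.9 and 24.5 CPM. Every aged NSF head was below every young head, and young head 4 stood far above the others. yellow-f2 fell by 0.84 ± 0.24 on the log2 scale (edgeR adjusted p = 0.0116), or 1.79-fold, and by 0.57 without young head 4 (adjusted p = 0.072). Aged SF heads measured 32.1, 42.1, 38.5, 31.5 and 16.3 CPM. Their difference from young heads was -0.59 ± 0.24 and missed the threshold (edgeR adjusted p = 0.0699), passing without young head 5 (0.0495) or aged SF head 2 (0.0497).

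In bodies, yellow-f measured 7.70, 5.13, 3.40, 9.62 and 7.91 CPM in the young, 10.2, 19.3, 12.2, 28.4 and 16.3 CPM in aged NSF and 7.18, 20.1, 16.6, 25.6 and 20.03 CPM in aged SF flies. Every aged NSF body was above every young body, and aged SF body 1 was the one aged SF body within the young range. The rise was 1.38 ± 0.37 in aged NSF bodies (edgeR adjusted p = 0.00932) and 1.42 ± 0.37 in aged SF bodies (edgeR adjusted p = 0.0161), close to its size in heads. yellow-f2 stayed near 20 CPM in bodies, at 19.7 ± 8.10, 19.3 ± 8.69 and 20.5 ± 3.23 CPM in young, aged NSF and aged SF flies (SD, n = 5), and passed no test there. The head-minus-body difference of its age effect was -0.83 ± 0.43 in normal sleepers (edgeR adjusted p = 0.211), so the fall in heads is not shown to be specific to them.

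yellow-e was the 1 member called between the sleep groups in heads, and the values of these groups overlapped. Its reads were few: the 5 young heads held 34, 56, 11, 44 and 25 of them, the aged NSF group 6, 8, 30, 4 and 6, and the aged SF group 26, 34, 56, 75 and 17. In CPM these are 15.7, 15.6, 7.12, 22.2 and 10.3 for the young, 2.30, 2.73, 9.08, 1.48 and 3.59 for normal sleepers and 10.6, 15.1, 24.2, 28.4 and 7.49 for fragmented sleepers. 4 of 5 aged NSF heads lay below every other head, and aged NSF head 3 reached into the range of the others. From young to aged NSF heads yellow-e fell 3.59-fold (-1.84 ± 0.46, edgeR adjusted p = 0.00374), and this held in all 15 fits that left out 1 head. Aged SF heads were 4.33-fold above aged NSF heads (2.11 ± 0.45, edgeR adjusted p = 0.0394), and their mean of 17.2 ± 8.93 CPM was near the young mean of 14.2 ± 5.80 CPM (0.27 ± 0.41, edgeR adjusted p = 0.688). These 3 comparisons share libraries: both of the differences that passed contain the same 5 aged NSF heads.

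The call between the sleep groups rested on most heads. With 1 head left out, yellow-e passed in 5 of 15 fits, the log2 difference stayed between 1.85 and 2.78, and the adjusted p ran from 0.00541 to 0.168. The call was lost without young head 2 (0.0516) or 5 (0.0544), without aged NSF head 1 (0.0924), 2 (0.126), 4 (0.131) or 5 (0.126), and without aged SF head 1 (0.0515), 2 (0.0627), 3 (0.168) or 4 (0.166). It was also lost in a fit of the aged heads alone (adjusted p = 0.0517). In the authors' deposited table of aged SF against aged NSF heads, yellow-e is the single member among 101 named genes, with a q of 0.00665 and a log2 value of 1.03. That table does not say whether its log2 values were shrunken, so the value is not set against the edgeR estimate. Of 6 hemocyte markers 3 were tested in heads, with a median log2 difference between the sleep groups of -0.20 (-0.01 for all genes). Hml was the 1 called (-1.67 ± 0.28, edgeR adjusted p = 0.00346), and the other tested markers were not. The 6 hemocyte markers had a summed level of between 225 and 265 CPM in the normal sleepers' heads and of between 178 and 211 CPM in the fragmented sleepers' heads, with none at 0 in either group, and their part in the yellow-e result was not tested.

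Bodies had more reads of yellow-e and no call. Young bodies measured 22.3, 9.02, 5.19, 19.6 and 26.4 CPM, aged NSF bodies 17.0, 15.02, 6.97, 4.33 and 6.95 CPM and aged SF bodies 12.9, 21.3, 19.6, 6.19 and 13.5 CPM. The groups overlapped throughout. The difference of aged NSF from young bodies was -0.73 ± 0.47 (edgeR adjusted p = 0.221), and without aged NSF bodies 1 and 2, which were the highest in that group, it was -1.42 (adjusted p = 0.0304). Aged SF differed from aged NSF bodies by 0.56 ± 0.47 (edgeR adjusted p = 0.531). The sleep-group difference in heads minus that in bodies was 1.49 ± 0.69, with an unadjusted p of 0.0398 and an edgeR adjusted p of 0.455, so it is not shown to differ between the tissues.

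**Figure D2:**
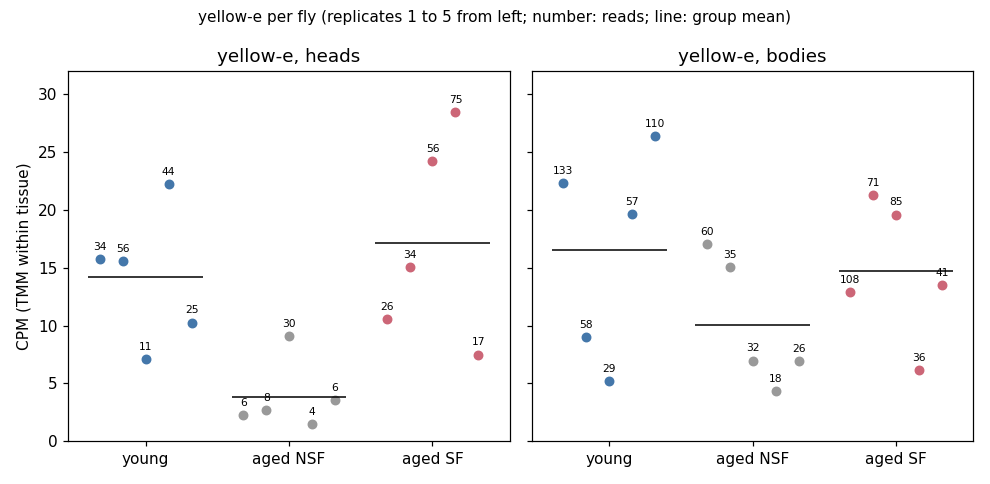
yellow-e in each fly, in CPM scaled within tissue (vertical axis), for young, aged NSF and aged SF heads (left) and bodies (right). Points are flies 1 to 5 of a group, the number above a point is its read count and lines are group means. 4 aged NSF heads lie at 3.59 CPM or lower, and aged NSF head 3 at 9.08 CPM overlaps with the lowest aged SF head at 7.49 CPM.

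yellow-b was the member with the steadiest rise. Young heads measured 13.9, 15.3, 11.01, 21.7 and 14.4 CPM, aged NSF heads 36.4, 43.7, 37.2, 45.5 and 43.6 CPM, and aged SF heads 28.8, 58.5, 44.6, 44.4 and 78.5 CPM. No aged head came down to the young range. The rise was 2.69-fold in aged NSF heads (1.43 ± 0.24, edgeR adjusted p = 6.46e-05) and 3.31-fold in aged SF heads (1.73 ± 0.24, edgeR adjusted p = 4.66e-06). Bodies repeated it, with 15.2, 14.6, 12.0, 18.6 and 11.3 CPM in the young, 48.5, 38.2, 46.0, 30.8 and 23.3 CPM in aged NSF and 29.7, 39.6, 33.6, 46.6 and 44.99 CPM in aged SF flies. All aged bodies were again above all young bodies. The rise there was 2.61-fold (1.39 ± 0.22, edgeR adjusted p = 0.000283) and 2.72-fold (1.44 ± 0.22, edgeR adjusted p = 0.00053). These 4 calls held with each library left out in turn. Between the sleep groups yellow-b differed by 0.30 ± 0.22 in heads (edgeR adjusted p = 0.725).

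yellow-c, the most abundant member in heads per kilobase, was highest in aged SF heads. Young heads measured 78.2, 96.6, 95.9, 118 and 100.5 CPM, aged NSF heads 168, 151, 130, 69.95 and 88.5 CPM and aged SF heads 214, 170.0, 241, 188 and 157 CPM. Aged SF heads were all above young heads, and aged NSF heads spread across both. The difference passed between aged SF and young heads (0.99 ± 0.19, edgeR adjusted p = 0.000506). It missed the threshold between aged NSF and young heads (0.32 ± 0.19, edgeR adjusted p = 0.264) and between the sleep groups (0.67 ± 0.19, unadjusted p = 0.00187, edgeR adjusted p = 0.185). In bodies yellow-c rose from 41.5 ± 9.99 CPM to 69.4 ± 16.6 CPM in aged NSF (0.74 ± 0.19, edgeR adjusted p = 0.0074) and 68.7 ± 2.52 CPM in aged SF flies (0.73 ± 0.19, edgeR adjusted p = 0.0167). The overlapping gene CIAPIN1 took a like course, at 118 ± 17.0, 144 ± 18.4 and 200.4 ± 12.0 CPM in young, aged NSF and aged SF heads. Its differences were 0.76 ± 0.13 for aged SF against young heads (edgeR adjusted p = 8.39e-05) and 0.49 ± 0.14 for aged NSF against young bodies (edgeR adjusted p = 0.0162). The yellow-c values may include reads of CIAPIN1, and which of the genes changed cannot be told apart.

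yellow-d moved in opposite directions in the tissues. Young heads measured 38.4, 108, 65.4, 26.3 and 31.6 CPM, aged NSF heads 24.5, 22.8, 31.5, 22.2 and 17.9 CPM and aged SF heads 23.1, 20.4, 18.2, 27.7 and 44.1 CPM. Young heads 2 and 3 stood apart from the rest, and the groups overlapped at the lower end. yellow-d fell 2.27-fold in aged NSF heads (-1.18 ± 0.34, edgeR adjusted p = 0.0176) and 2.04-fold in aged SF heads (-1.03 ± 0.34, edgeR adjusted p = 0.0342). Without young head 2 these differences were -0.74 (adjusted p = 0.0605) and -0.59 (0.135). The fall in aged SF heads was also lost without young head 3 (0.0705), without aged SF head 1 (0.0769), 2 (0.0852), 3 (0.0812) or 4 (0.0627), in a fit of the compared groups alone (0.086) and with no low-count filter (0.0727).

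In bodies yellow-d went up with age. Young bodies measured 70.0, 57.2, 58.0, 67.4 and 55.9 CPM, aged NSF bodies 143, 54.1, 105, 91.1 and 109 CPM and aged SF bodies 102, 111, 108, 74.8 and 118 CPM. Aged NSF body 2, the body with the high photoreceptor markers, was the one aged body that did not exceed all young bodies. The rise was 0.71 ± 0.21 in aged NSF (edgeR adjusted p = 0.0142) and 0.74 ± 0.21 in aged SF bodies (edgeR adjusted p = 0.0244). The call in aged SF bodies was lost without young body 2 (0.0535), 3 (0.0576), 4 (0.0602) or 5 (0.0883) or aged SF body 2 (0.0552) or 5 (0.0616), while the difference stayed between 0.68 and 0.83 in all 15 fits. The age effect in heads minus that in bodies was -1.90 ± 0.42 for aged NSF (edgeR adjusted p = 0.00355) and -1.83 ± 0.42 for aged SF flies (edgeR adjusted p = 0.00668). Both differences passed with each of the 30 libraries left out in turn, at between -2.08 and -1.44 and between -2.09 and -1.37. The medians of all 12318 genes in these contrasts were -0.09 and -0.15. The 2 contrasts share the young flies.

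**Figure D3:**
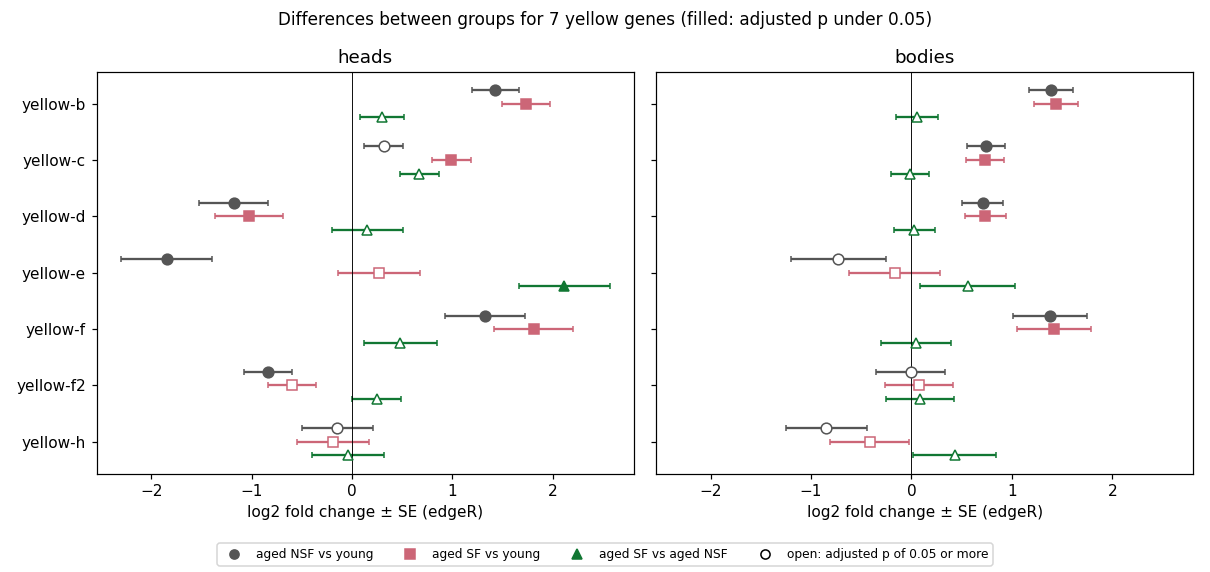
log2 fold changes ± SE (horizontal axis) of the 7 tested yellow genes in heads (left) and bodies (right) for 3 comparisons. Filled symbols have an edgeR adjusted p under 0.05. yellow-b and yellow-f lie to the right in both tissues for both age comparisons, yellow-d lies left in heads at -1.18 and right in bodies at 0.71, and the filled sleep-group symbol in heads is yellow-e at 2.11.

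yellow-h, the member on chromosome 4, passed no test within a tissue. It measured 9.95 ± 2.07, 8.89 ± 3.57 and 8.66 ± 2.13 CPM in young, aged NSF and aged SF heads (SD, n = 5), with overlapping values. Young bodies held 5.36, 6.38, 6.80, 7.22 and 7.91 CPM, aged NSF bodies 1.99, 7.72, 5.67, 2.65 and 1.07 CPM and aged SF bodies 5.15, 3.30, 5.53, 5.16 and 5.91 CPM. Aged NSF bodies were the most scattered. Their difference from the young was -0.85 ± 0.41 (edgeR adjusted p = 0.102). It was -1.19 without aged NSF body 2 (adjusted p = 0.0261) and passed under DESeq2 (0.0371) and limma voom (0.0269). Its right-hand neighbour CG1674, 301 bp away, fell in heads (-0.84 ± 0.18, edgeR adjusted p = 0.00131 for aged NSF) and in bodies (-0.84 ± 0.16, edgeR adjusted p = 0.00114).

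Of the 4 other yellow-named genes in the table, which are not among the 10, yellow-k passed the filter in bodies. It went from 9.37 ± 3.15 CPM in young to 2.92 ± 1.87 CPM in aged NSF bodies (-1.61 ± 0.39, edgeR adjusted p = 0.00533) and stood at 8.29 ± 2.27 CPM in aged SF bodies. Without aged NSF bodies 1 and 2 the fall was 1.25 (adjusted p = 0.0147). All aged SF bodies were above all aged NSF bodies, and this difference did not pass (1.44 ± 0.39, edgeR adjusted p = 0.11). 84.4% of its single exon lies opposite an antisense RNA.

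In heads, 5 of 7 tested members differed between aged NSF and young flies, 2 higher and 3 lower, where 22.8% of 9088 genes did, 11.4% higher and 11.5% lower. Their median was -0.15 on the log2 scale, and that of all genes 0.02. Aged SF heads differed from young heads in 4 of 7 members, 3 higher and 1 lower, against 25.2% of genes, 13% higher and 12.2% lower. In the sleep-group comparison of heads 1 of 7 members was called, and it was higher, against 0.253% of genes called and 0.22% called higher. In bodies 4 of 7 rose in aged NSF flies and none fell, against 41.1% of genes called in either direction and 21.7% called higher, with medians of 0.71 for the members and 0.03 for all genes. The same 4 members, yellow-b, yellow-c, yellow-d and yellow-f, rose in aged SF bodies, where 14.4% of genes were called and 11.1% called higher. Between the sleep groups of bodies edgeR called 0 of 7 members, with 0 at an unadjusted p under 0.05 and 0 by DESeq2 or limma voom. Over all genes in that comparison the edgeR percentage was 0, with 2086 genes at an unadjusted p under 0.05, 640 called by DESeq2 and 385 by limma voom. The values of the compared groups did not overlap for 2 of 7 members between aged NSF and young heads (15.9% of genes), 0 of 7 between the sleep groups in heads (2%) and 3 of 7 between aged SF and young heads (18.2%). In bodies the groups were apart for 2 (26.8% of genes), 0 (6.63%) and 3 members (13.8%) in the same order of comparisons. The members tested are those that passed the filter, and with 7 of them these shares are descriptions only.

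Young heads and bodies differed in 2 of 8 members tested in the joint fit, against 70.8% of 12318 genes called and 27.7% called higher in heads. yellow-c (0.95 ± 0.20, edgeR adjusted p = 0.000107) and yellow-f2 (1.03 ± 0.31, edgeR adjusted p = 0.00359) were higher in heads, where the median of all genes was -0.27. yellow-d differed by -0.46 ± 0.29 (edgeR adjusted p = 0.163) and by -0.92 without young head 2 (adjusted p = 0.0028). yellow-e differed by -0.48 ± 0.46 (edgeR adjusted p = 0.357). The age effect differed between tissues in 1 of 8 members, yellow-d, against 13.2% of genes for aged NSF and 6.86% for aged SF flies. Its effect was lower in heads, a direction that 8.83% and 5.24% of genes shared. For the sleep groups the tissue difference was called in 0 of 8 members and 0% of genes by edgeR. At an unadjusted p under 0.05 there were 2 members and 1259 genes. DESeq2 called 136 genes and limma voom 20 there, with 0 and 0 members among them.

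Genes of dopamine and pigment metabolism were called in both directions with age. Of 15 listed genes, 12 were tested in heads, and 2 rose and 3 fell from young to aged NSF heads, where 22.8% of genes were called, with a median of 0.02 for the list and 0.02 for all genes. The tyrosine hydroxylase gene ple, whose product makes dopa, went from 69.2 ± 25.7 to 286 ± 146 CPM (2.05 ± 0.35, edgeR adjusted p = 0.000851). The gene ebony (e), which couples dopamine to beta-alanine, rose from 34.0 ± 13.2 to 187 ± 55.8 CPM (2.44 ± 0.25, edgeR adjusted p = 1.38e-06). The gene tan (t), which reverses that coupling, fell from 305 ± 52.2 to 154 ± 39.8 CPM (-0.98 ± 0.18, edgeR adjusted p = 0.000234). Dat, which acetylates dopamine, fell by 1.39 ± 0.20 (edgeR adjusted p = 1.59e-05), and Hn, the phenylalanine hydroxylase gene, fell by 0.81 ± 0.23 (edgeR adjusted p = 0.018). In aged SF heads 2 rose (ple, 1.88, and e, 1.71) and 2 fell (t, -0.48, and Dat, -1.29), against 25.2% of genes called. None of the 12 was called between the sleep groups of heads by edgeR, DESeq2 or limma voom, and 4 had an unadjusted edgeR p under 0.05.

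In bodies 13 of these listed genes were tested, and 6 rose and 2 fell in aged NSF flies. There 41.1% of genes were called and 21.7% called higher. Their median was 0.15, and that of all genes 0.03. The dopa decarboxylase gene Ddc went from 38.2 ± 5.80 to 165 ± 85.3 CPM (2.11 ± 0.45, edgeR adjusted p = 0.00252) and the pteridine cofactor gene Pu from 31.3 ± 6.34 to 99.9 ± 33.3 CPM (1.68 ± 0.35, edgeR adjusted p = 0.00241). e (2.03), svr (0.78), Hn (0.74) and Catsup (0.39) rose as well. The prophenoloxidase genes PPO2 (-4.0) and PPO1 (-2.95), whose products make melanin in wounds and immune reactions, fell. Without aged NSF bodies 1 and 2, PPO1 lost its call (-2.51, adjusted p = 0.0918). In aged SF bodies 5 rose (Pu, 1.75, Ddc, 1.39, laccase2, 0.78, svr, 0.72, and Hn, 0.64) and PPO2 fell (-2.13), against 14.4% of genes called. Without the same 2 bodies, Ddc no longer passed there (1.37, adjusted p = 0.0742) and Dat did, as lower (-0.55, adjusted p = 0.0185). None was called between the sleep groups of bodies by edgeR, DESeq2 or limma voom, and 2 had an unadjusted edgeR p under 0.05. As for yellow-d, the age effect differed between tissues for some enzymes: it was lower in heads for Hn, Pu, Ddc, Dat and svr and higher for ple and PPO2 in aged NSF flies, 7 of 14 tested, against 13.2% of genes. In aged SF flies 4 of 14 differed, with PPO2 higher in heads and Pu, Ddc and svr lower, against 6.86% of genes.

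**Figure D4:**
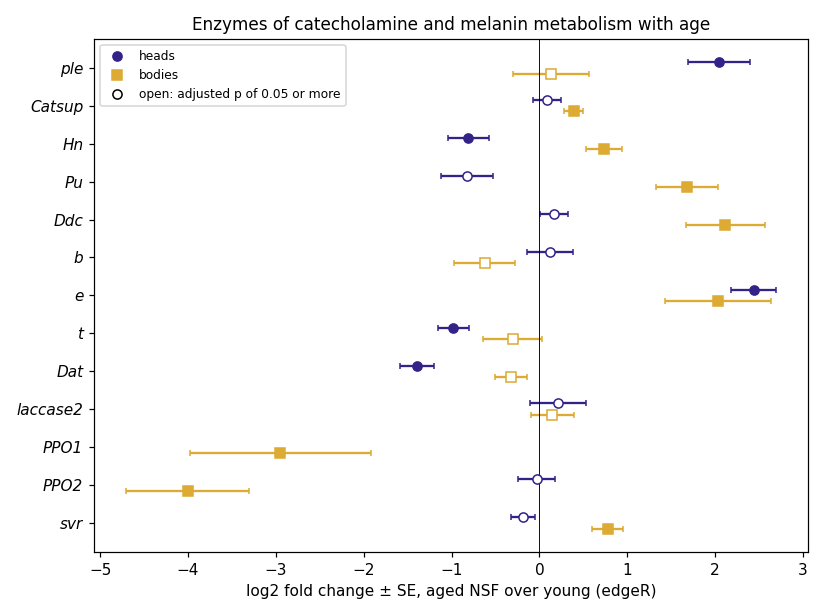
log2 fold changes ± SE of aged NSF over young flies (horizontal axis) for the genes of dopamine and pigment metabolism tested in heads (circles) or bodies (squares). Filled symbols have an edgeR adjusted p under 0.05. ple is at 2.05 in heads, e is above 2 in both tissues, Ddc is at 2.11 in bodies and PPO2 is at -4.0 in bodies.

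Among regulators of y and of body pigment, 1 of 8 tested was called in aged NSF heads, against 22.8% of genes. This was bi, a T-box factor gene, which rose (0.86, edgeR adjusted p = 0.00438). None was called in aged SF against young heads, by edgeR, DESeq2 or limma voom or at an unadjusted p under 0.05. In bodies 2 of 9 rose, Dll (1.08) and Eip74EF (0.95), and 2 fell, dac (-1.65) and fru (-0.55), in aged NSF flies, against 41.1% of genes called. Dll (1.04) rose in aged SF flies, 1 of 9 against 14.4% of genes. Without aged NSF bodies 1 and 2, Dll (0.92, adjusted p = 0.0668) and fru (-0.42, adjusted p = 0.123) lost their calls in aged NSF flies and dac passed in aged SF flies (-1.21, adjusted p = 0.0117). No regulator was called between the sleep groups in either tissue by the 3 tools, with 0 at an unadjusted p under 0.05.

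Of the genes of chitin and cuticle assembly tested in aged NSF heads, 6 of 12 rose and 2 fell, against 22.8% of genes called and 11.4% called higher, with a median of 0.58 for the list and 0.02 for all genes. The chitinase gene Cht2 went from 2.63 ± 1.44 to 18.2 ± 4.73 CPM (2.75, edgeR adjusted p = 3.19e-05). The chitin organisation genes knk (2.19) and rtv (1.11), the chitin deacetylase genes serp (1.16) and verm (1.04) and the chitin-binding gene Gasp (0.90) rose. CG16885 (-2.55) and CG16884 (-2.06), listed as Vajk genes, fell. The same 8 and Cht5 (1.58) were called in aged SF heads, against 25.2% of genes. In bodies 5 of 11 rose (serp, verm, Gasp, mmy and Cht2) and 3 fell (kkv, obst-A and CG16884) in aged NSF flies, and 3 rose (serp, verm and mmy) and CG16884 fell in aged SF flies, against 41.1% and 14.4% of genes called. Without aged NSF bodies 1 and 2, verm (0.75, adjusted p = 0.0687) and kkv (-1.26, adjusted p = 0.106) lost their calls in aged NSF flies and Cht5 passed in aged SF flies (1.67, adjusted p = 0.0176). The filter then kept 12 genes of this list in bodies, of which 4 rose and 2 fell in aged SF flies. Between the sleep groups edgeR called 0 of 12 in heads, with 2 at an unadjusted p under 0.05, 1 by DESeq2 and 0 by limma voom. In bodies edgeR called 0 of 11, with 1 at an unadjusted p under 0.05, 1 by DESeq2 and 1 by limma voom. Without the 2 bodies edgeR called Cht2 there (-1.06, adjusted p = 0.035).

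The genes whose levels ran most like each member over the 15 libraries of a tissue differed from member to member. These correlations of log2 CPM contain the differences between the groups and the shared depth of a library, and they were ranked over all tested genes, so they are descriptions. In heads yellow-e ran with the peptide gene Drsl4 (Pearson r = 0.90) and CG10348 (0.87), both followed over 15 heads. yellow-b ran with mfas and AnxB11 (0.95 for each), yellow-c with CG6409 (0.93), yellow-d with CG7582 (0.84), yellow-f with CG31516 (0.94), yellow-f2 with Edem2 (0.91) and yellow-h with wake (0.83). In bodies yellow-b ran with CG12814 and scaf (0.95 for each), yellow-c with CG34043 (0.95) and again CG6409 (0.94), and yellow-d with RpII140 (0.95). yellow-e ran with CG43788 (0.86), yellow-f with CG6426 (0.93), yellow-f2 with CG10602 (0.87) and yellow-h with CR43414 (0.93). Among the members, yellow-b and yellow-f ran together at 0.80 over heads and 0.73 over bodies.

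The nearest protein-coding genes beside the members, other than yellow genes, were 14 in the table, of which 10 were tested in each tissue. In aged NSF heads none rose and 2 fell, against 22.8% of genes called, and in aged SF heads 1 rose and 1 fell, against 25.2%. In aged NSF bodies 4 rose and 1 fell, against 41.1% of genes, and in aged SF bodies 3 rose and 1 fell, against 14.4%. The calls in heads were CIAPIN1, CG1674 and CG31999, of which CG31999 fell in aged NSF heads (-0.54, edgeR adjusted p = 0.0429). In bodies they were CIAPIN1, CG1674, Golgin245, ppk17 and CG33977, of which CG33977 rose in aged NSF bodies (0.84, edgeR adjusted p = 0.0381) and lost that call without aged NSF bodies 1 and 2 (0.65, adjusted p = 0.137). Golgin245, 1527 bp to the left of yellow-d, rose in aged NSF bodies (0.83 ± 0.14, edgeR adjusted p = 0.00051) and aged SF bodies (0.73 ± 0.14, edgeR adjusted p = 0.00314). ppk17, which overlaps yellow-b, rose in aged NSF bodies from 0.929 ± 0.902 to 4.22 ± 1.49 CPM (2.28 ± 0.54, edgeR adjusted p = 0.00488), near the floor. CG31342 beside yellow-f and CG7488 beside yellow-f2 passed no test within heads or bodies. Ir87a beside yellow-e and ac and CG43182 beside y were not tested because of low counts.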

How the data were processed

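The design text states that adapters were trimmed with Trimmomatic, reads mapped to dm6 with STAR, alignments under a mapping quality of 8 and non-primary ones dropped, exon reads counted with HTSeq-count and groups compared with DESeq2. Versions, strand setting and annotation are not given in the sources used here. The authors deposited raw counts per gene for 30 libraries, used without change, and a table of q values and log2 fold changes, of which the named genes for aged SF against aged NSF heads were used, since its other columns could not be tied to genes.

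Counts were tested with edgeR 4.0.16 (R 4.3.3): TMM scaling, filterByExpr by group, robust quasi-likelihood fits of the 3 groups within heads or bodies, or of 6 groups for tissue contrasts, and Benjamini-Hochberg adjustment over all genes tested, with a threshold of 0.05. The SE is the log2 fold change divided by the root of F. CPM use TMM within a tissue, and correlations use log2 CPM with a prior count of 2. Markers and levels across tissues use 1 scale for all 30 libraries. The sample titles and column names give no batch, so a batch effect could not be examined. No replicate pair was a copy (lowest chi-square per degree of freedom 4.50). The edgeR steps were also run on simulated counts, drawn independently for each gene and library. Such counts hold no odd library, so that run does not bear on how stable the counts of changed genes are.

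All 10 members were to be named, with nearest neighbours, the most correlated genes and w. Genes that passed were named from the lists of dopamine and pigment metabolism, pigment regulators and cuticle assembly. Members and lists were chosen with earlier results of these data known. Cell type markers covered photoreceptors, neurons, glia, fat body, hemocytes, muscle, testis, accessory gland, midgut and Malpighian tubule. In aged NSF against young heads, where 22.8% of genes were called, 5 of 7 photoreceptor, 2 of 4 neuron and 1 of 3 tested hemocyte markers fell. Glia markers fell in 2 and rose in 1 of 4. Testis, accessory gland and midgut markers had 0 tested genes in heads. In bodies 2 of 6, 1 of 5 and 2 of 4 of them fell in aged NSF flies, where 41.1% of genes were called. Without aged NSF bodies 1 and 2, 5 of 6, 3 of 5 and 3 of 4 fell, in the same order. The tested Malpighian tubule marker rose in heads, and in bodies 1 rose and 1 fell of 3. Symbols follow the count table (laccase2 for stw, Gasp for obst-C). Coordinates come from an Ensembl annotation of BDGP6 holding 17253 of the gene IDs. The alternatives were RLE scaling, no filter, 5 CPM in at least 5 libraries, a 2-fold minimum, DESeq2 1.42.0, limma 3.58.1 voom with quality weights, the compared groups alone, a replicate block, each library left out, and aged NSF bodies 1 and 2 left out together. Floors cover counting error only.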

Additional observations from a re-analysis of the deposited data

Results flagged for a closer look

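yellow-e in aged NSF head 3 stood at 9.08 CPM, from 30 reads, far above the other 4 aged NSF heads, and yellow-f2 in young head 4 stood at 81.4 CPM, far above the other 4 young heads. They are the 2 groups with such a sample among 42 groups of member values, and chance gives about 1 in 20. Without aged NSF head 3 the aged SF over aged NSF difference of yellow-e was 2.78, and without young head 4 the fall of yellow-f2 with age was 0.57 on the log2 scale (edgeR adjusted p = 0.072). The age effect on yellow-d differed between heads and bodies by -1.90 in normal sleepers and by -1.83 in fragmented sleepers on the log2 scale, by the test of the difference itself (edgeR adjusted p = 0.00355 and 0.00668).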

How the results depend on the processing

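Of 2199 member values under other settings, 95 changed sign, and 0 of these belonged to the 22 called results. Counts of changed members moved with a 2-fold minimum, to 2 in each age comparison of bodies and 1 between young heads and bodies. With the compared groups alone they moved to 0 for the sleep groups in heads. Smaller changes also occurred. Limma voom gave 4 members for aged NSF against young heads, where edgeR gave 5. In bodies DESeq2 and limma voom each gave 5 for that comparison, where edgeR gave 4. The 2-fold minimum dropped yellow-f2 in aged NSF and yellow-c in aged SF against young heads. Leaving out 1 library gave 3 to 5 changed members for aged NSF against young heads, 0 to 1 for the sleep groups in heads, and 0 throughout in bodies.

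Counts over all genes were less stable, and the cause was not tested. The 23 genes of the sleep-group comparison in heads became 56 with no filter, 88 with DESeq2, 39 with limma voom, 36 with the compared groups alone, and 9 to 61 with 1 library left out. In bodies that comparison gave 5 with RLE scaling, 1 with no filter, 5 with a 5 CPM filter, 640 with DESeq2, 385 with limma voom, 205 without aged NSF bodies 1 and 2, and 0 to 250 with 1 library left out, the highest without aged NSF body 1. Aged SF against young bodies gave 4242 with limma voom, 3369 with the compared groups alone, 3402 without aged NSF bodies 1 and 2, and 1087 to 3391 with 1 library left out. With a 2-fold minimum, 883 and 913 genes changed with age in aged NSF and aged SF heads, 2610 and 610 in bodies, and 964 and 491 in the tissue difference of these effects. The tissue difference for the sleep groups was 136 genes with DESeq2, 20 with limma voom, 12 without aged NSF bodies 1 and 2 and 0 to 13 with 1 library left out. For aged SF against young it was 1437 with limma voom and 422 to 1026 with 1 left out, and for aged NSF 991 to 1885.

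Replicate numbers recur in all groups. The labels do not say whether a head and a body of the same number come from the same fly. Group pairs counted as deviating together by number if all 5 correlations were over 0.1. This held for 0 of 15 group pairs (correlations from -0.12 to 0.43). Heads and bodies of the same condition correlated at 0.04 to 0.19 in young, 0.04 to 0.17 in aged NSF and 0.02 to 0.15 in aged SF flies. The main joint fit of heads and bodies treats them as independent. With the number as a replicate block, the sleep groups gave 63 genes in heads and 1 in bodies. In the joint fit the block paired the head and body of the same condition and number. The tissue difference for the sleep groups was then 3 genes. The fall of yellow-d in heads had edgeR adjusted p-values of 0.0569 (aged NSF) and 0.109 (aged SF) with the number as block. Its young head-body difference passed in the paired joint fit (-0.63, edgeR adjusted p = 0.0494). Depth limits y, yellow-e3 and yellow-d2, which lie near the floor of 3 reads.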
